A study of Mus musculus with 16 samples.

Results

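The genes described here are 10 members of the Ugt2 and Ugt3 families of UDP-glycosyltransferases in mouse liver: Ugt2b1, Ugt2b5, Ugt2b34, Ugt2b35, Ugt2b36, Ugt2b37, Ugt2b38, Ugt2a3, Ugt3a1 and Ugt3a2. They were chosen by name, and all 10 were found by symbol among the 78317 genes listed in the deposited tables. The study measured polyadenylated RNA in whole liver of wild-type C57BL/6J mice, with 4 libraries in each of 4 groups. Female and male mice arrived at 6 weeks of age and were fed for 10 weeks a normal chow (LabDiet 5053) or a high fat diet (Research Diets D12492). Fat is recorded as 4.5% of calories in the chow and 60% in the high fat diet, values not checked here. The diets are different products, so their other ingredients differed along with the fat, and all 16 libraries carry the same batch label. The hour of collection is not given in the sources used here. Each library was labelled as a sample of its own; where nothing says that libraries came from separate animals, p-values measure only the spread between these libraries.

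UDP-glucuronosyltransferases sit in the membrane of the endoplasmic reticulum and join glucuronic acid from UDP-glucuronate to small fat-soluble molecules, which makes them soluble in water and ready for export into bile or blood. The Ugt2b enzymes are known for work on steroid hormones, bile acids and drugs, and the liver is their main site. Ugt2a3 belongs to the sister subfamily Ugt2a. The Ugt3 enzymes are relatives whose human counterparts use other sugar donors, such as UDP-N-acetylglucosamine, UDP-glucose and UDP-xylose, so the name glucuronosyltransferase fits them only loosely. In the reference annotation the 8 Ugt2 genes lie in one cluster on chromosome 5, in the order Ugt2b34, Ugt2b1, Ugt2b35, Ugt2b36, Ugt2b5, Ugt2b37, Ugt2a3 and Ugt2b38. Ugt3a1 and Ugt3a2 lie side by side on chromosome 15.

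Many members are close copies of each other. Over the coding sequence Ugt2b5 and Ugt2b38 were identical at 97% of bases, Ugt2b5 and Ugt2b37 at 94.7%, Ugt2b37 and Ugt2b38 at 94.1%, Ugt3a1 and Ugt3a2 at 93.2%, and Ugt2b35 and Ugt2b36 at 88.3%. Of all 100-base windows of its transcript, Ugt2b5 shared 24.7% letter for letter with another gene and Ugt2b38 shared 24.2%. Ugt2b37 shared 1.06%, Ugt2b34 0.278% and Ugt2a3 0.595%, and no window was shared for the other 5 members. The deposited counts are estimates that divide reads between such copies. Values of Ugt2b5, Ugt2b37 and Ugt2b38 are therefore uncertain where a small share of reads assigned to the wrong copy would matter. That is the case for the low values of Ugt2b38 in females and of Ugt2b37 everywhere. Counts that were not whole, as divided reads give, were found for this trio in all 16 libraries. They were also found for Ugt3a1 and Ugt3a2 in 15 each, Ugt2a3 in 13 and Ugt2b34 in 12. Ugt2b1, Ugt2b35 and Ugt2b36 had them in 2 each.

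The promoters of this trio are shown because genes with related start regions had very unequal levels in these livers. Each run is 300 bases from the RefSeq annotation of GRCm38.p6, from 250 bases before to 50 bases after the start of the gene, all on the minus strand: Ugt2b5 at chr5:87140291-87140590, Ugt2b37 at chr5:87254739-87255038 and Ugt2b38 at chr5:87424154-87424453. Capitals mark AAAGGTCA, a pattern like an extended half-site of nuclear receptors.
Ugt2b5: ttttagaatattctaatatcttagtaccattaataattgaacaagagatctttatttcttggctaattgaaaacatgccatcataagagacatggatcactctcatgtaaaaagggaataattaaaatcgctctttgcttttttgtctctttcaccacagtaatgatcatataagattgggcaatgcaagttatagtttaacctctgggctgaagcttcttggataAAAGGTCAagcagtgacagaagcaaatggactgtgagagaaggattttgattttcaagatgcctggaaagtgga
Ugt2b37: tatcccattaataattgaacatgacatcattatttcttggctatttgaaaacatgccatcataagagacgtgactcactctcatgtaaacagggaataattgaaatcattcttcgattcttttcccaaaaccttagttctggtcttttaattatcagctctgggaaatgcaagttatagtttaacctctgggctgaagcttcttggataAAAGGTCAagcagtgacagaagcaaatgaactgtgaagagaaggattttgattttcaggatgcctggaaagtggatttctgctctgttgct
Ugt2b38: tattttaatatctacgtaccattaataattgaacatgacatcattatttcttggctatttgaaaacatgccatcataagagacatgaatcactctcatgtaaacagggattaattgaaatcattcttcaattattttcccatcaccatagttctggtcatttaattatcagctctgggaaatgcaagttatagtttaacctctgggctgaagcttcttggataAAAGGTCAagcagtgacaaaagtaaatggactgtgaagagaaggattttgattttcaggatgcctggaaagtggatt

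Ugt2b37 and Ugt2b38 were identical at 86.9% of these promoter bases, Ugt2b5 and Ugt2b38 at 84.2%, and Ugt2b5 and Ugt2b37 at 76.2%. The capital letters began 24 bases before the start in Ugt2b5, 41 in Ugt2b37 and 27 in Ugt2b38. Promoters were given for 9 of the 10 members, all but Ugt3a2. AAAGGTCA or its reverse complement TGACCTTT was found in 4 of these 9, the trio and Ugt2b36, and in 495 of the 32851 promoters of the same length in the table (1.51%). The members descend from common ancestors, so 4 matches are not 4 separate observations. The stretch around it in Ugt2b36 (chr5:87092555-87092602, minus strand of the same build) is shown for comparison with the trio.
Ugt2b36: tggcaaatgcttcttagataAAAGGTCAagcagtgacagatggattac

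TTCNNNGAA, like the pattern that STAT5 binds, was found in 8.3% of all promoters and in none of the 9 members searched. This says only that these letters are not in this window. A match is a description of letters, not of a bound site.

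Levels between genes were compared in TPM, the deposited abundance scaled by transcript length and library. Ugt2b5 stood highest in all 4 groups and Ugt2b36 second. Ugt2b5 was at 960 ± 57.2 TPM (SD, n = 4) in females on the normal diet, 784.1 ± 41.9 in females on the high fat diet, 1581.1 ± 126.2 in males on the normal diet and 746.9 ± 89.8 in males on the high fat diet. Ugt2b36 was at 750.9 ± 53.6, 711.8 ± 61.3, 957.6 ± 55.2 and 697.6 ± 110.7 TPM in the same order of groups. The lowest place was held by Ugt2b38 in females, at 1.18 ± 0.38 and 0.502 ± 0.151 TPM, and by Ugt2b37 in males, at 8.76 ± 3.12 and 4.59 ± 2.4 TPM.

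Between these ends the order depended on sex and diet. In normal diet females Ugt2b34 (348.3 ± 18.8 TPM), Ugt3a2 (333.5 ± 19.5) and Ugt2a3 (299 ± 7.6) followed in that order, each overlapping with the next, and then came Ugt2b1 (239.4 ± 24.6), Ugt3a1 (89.1 ± 3.99), Ugt2b35 (79.2 ± 4.24) and Ugt2b37 (9.82 ± 1.35). In normal diet males Ugt2b1 held the place after Ugt2b36, at 623.9 ± 57.1 TPM, followed by Ugt2b34 (367.9 ± 38.3), Ugt3a2 (279.8 ± 19.8), Ugt2a3 (269 ± 26), Ugt2b35 (173 ± 14.9), Ugt3a1 (61.6 ± 5.01) and Ugt2b38 (60.1 ± 10.1). Of the 9 pairs of neighbours in the order, 2 overlapped in each normal diet group (in males Ugt3a2 with Ugt2a3 and Ugt3a1 with Ugt2b38), 6 in high fat diet females and 5 in high fat diet males. In both high fat diet groups the neighbours Ugt2b5 and Ugt2b36 overlapped, which they did in neither normal diet group.

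**Figure D1:**
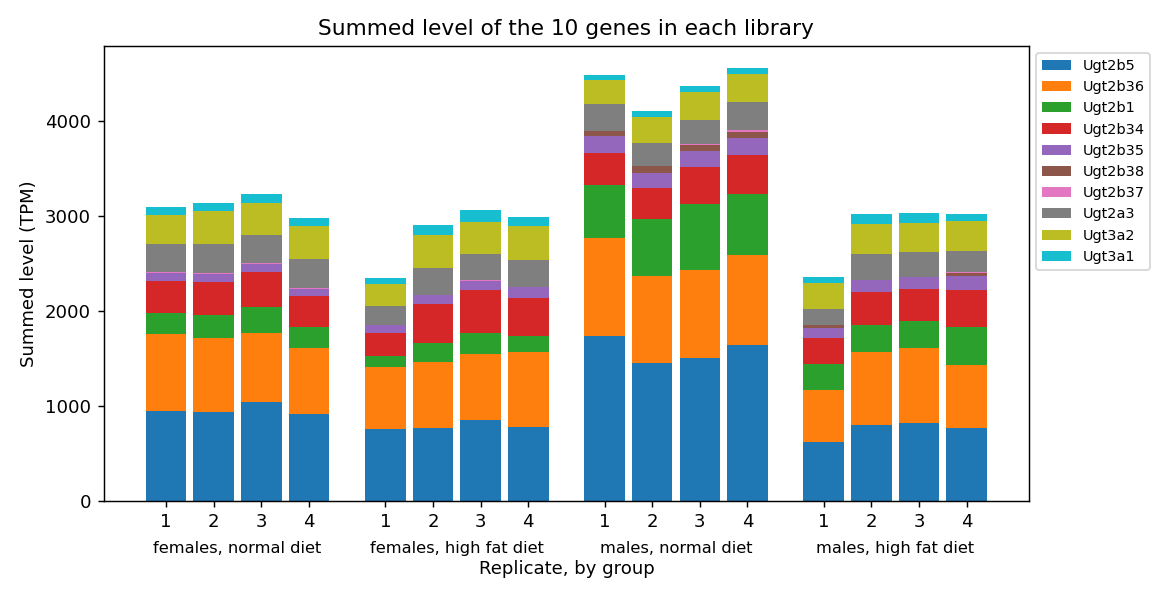
Summed TPM of the 10 genes in each of the 16 libraries (vertical axis), stacked by gene and arranged by group and replicate (horizontal axis). The 4 libraries of males on the normal diet stand between 4103.7 and 4565 TPM, above every library of the other groups, and the lowest bars are replicate 1 of each high fat diet group.

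Summed over the 10 genes, males on the normal diet stood apart. The sum was 4382.8 ± 202.5 TPM in them (SD, n = 4, 4103.7 to 4565), against 3110.4 ± 105 in normal diet females (2980.1 to 3233.3), 2829.3 ± 325 in high fat diet females (2351 to 3062.6) and 2854.5 ± 333.8 in high fat diet males (2353.8 to 3028.1). The plot of summed levels shows that 2 genes made most of the male excess, Ugt2b5 and Ugt2b1. Ugt2b5 took 36.1% ± 1.77 of the sum in normal diet males and 26.2% ± 0.605 in high fat diet males, and Ugt2b1 took 14.3% ± 1.38 and 10.9% ± 1.9. The sums were not tested.

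Differences between groups were tested on the estimated counts, and levels within a gene are given below as CPM, counts per 1000000 of the scaled library size. A gene is called where its adjusted p in edgeR's quasi-likelihood test, over the 14781 genes tested, was under 0.05; log2 fold changes carry their standard error. The 16 libraries held 22228115 to 41420589 counts. The sex label matched sex-linked genes in 16 of 16 libraries. Replicates 2 and 3 of the high fat diet males differed from each other much less than any other pair of a group: the chi-square of their counts per gene was 4.07, above the 1 of counting noise alone, while the other 23 pairs gave 20.9 to 308. Whether they came from 1 animal is not given in the sources used here. They were kept as 2 libraries, so that n = 4 for high fat males counts libraries, and values without both are given where a call turns on them. With their mean taken as 1 library the members called for diet were the same in number, 2 in females and 4 in males. With both left out they were 4 in females and 6 in males. These 2 also held the most RNA of pancreatic acinar markers, with a summed level of up to 18.8 CPM against at most 4.0 in every library outside high fat diet males.

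The defining hepatocyte markers were high in every library, with 5 of the 6 listed genes matched. Their summed level was lower on the high fat diet: 78782.4 to 95178.1 CPM against 102211.1 to 114745.3 in females, and 52150 to 75090.1 against 82049.2 to 91784.6 in males. Alb made most of this sum, with a mean of 90610.3 CPM in normal diet females, so the sum mainly follows that gene. Of the 5 genes, 1 was called lower in females (Cps1) and 1 in males (Alb), and none higher. The log2 differences of Ttr, Apoa1 and Apob were 0.04, 0.06 and -0.04 in females and -0.16, -0.34 and -0.12 in males. Kupffer cell markers summed to 367.4 to 544.3 CPM in high fat diet females against 221.8 to 328.4 on the normal diet, with 1 of 5 called higher. In males they summed to 176.5 to 377.6 against 203.3 to 324.6, with none called by edgeR (0 at an unadjusted p under 0.05). Between the sexes on the high fat diet, 3 of the 5 Kupffer markers were called higher in females, Clec4f (0.74), Cd5l (0.8) and Vsig4 (0.64), and so was the hepatocyte marker Alb (0.57). On the normal diet none of either list was called (edgeR; 1 Kupffer and 2 hepatocyte markers had an unadjusted p under 0.05).

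Of 3 sinusoidal endothelium markers, Clec4g was called higher in females on both diets (0.7 and 0.55), and none was called for diet (edgeR; 1 in each sex had an unadjusted p under 0.05). Of 4 cholangiocyte markers 1 was called lower for diet in males and none in females (edgeR; 0 at an unadjusted p under 0.05), 1 was called lower in females on the normal diet, and on the high fat diet 2 were called higher and 1 lower in females. T and B cell markers summed to at most 5.38 CPM in every library, and of 4 tested 1 was called, Cd3d, higher in females on the high fat diet. Of 4 kidney proximal tubule markers, 2 were at 0 in every library, Slc34a1 and Kap, and the 1 tested, Lrp2, was called lower in females on both diets (-4.66 and -4.17) at no more than 2.22 CPM in any group mean. Of 4 intestinal markers Lct was at 0 in every library, and Vil1 and Muc2 reached at most 0.599 and 0.124 CPM. The 1 tested, Fabp2, lay at 51.1 to 258.2 CPM, so the 4 did not go together. Fabp2 was called higher on the high fat diet in females (1.06, edgeR adjusted p = 0.0302) and in males (1.1, edgeR adjusted p = 0.0258). The 1 acinar marker tested, Cela2a, was called higher on the high fat diet in males (3.04) and lower in females than in males on that diet (-2.92). The part of these markers in the differences below was not tested. In whole liver, fewer cells of a type and less RNA per cell cannot be told apart.

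In females, 2 of the 10 genes were lower on the high fat diet and none was higher. Over all genes tested 5.76% were called lower and 5.74% higher in this comparison. Ugt2b1 and Ugt2b5 fell. The median log2 fold change of the 10 genes was -0.38, against 0 over all genes tested. In 6 of the 10 the high fat libraries all lay below the normal diet libraries, which was so for 9.55% of all genes tested, and these were Ugt2b1, Ugt2b5, Ugt2b36, Ugt2b38, Ugt2a3 and Ugt3a2.

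Ugt2b1 in females was at 471.4, 504.7, 512.5 and 455.1 CPM on the normal diet and at 200.2, 329.7, 398.2 and 272.6 on the high fat diet. The groups did not overlap, and replicate 1 was the lowest of the high fat libraries. The log2 fold change was -0.69 ± 0.17 (edgeR adjusted p = 0.0128).

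Ugt2b5 in females was at 1387, 1375, 1328 and 1254 CPM on the normal diet and at 896.9, 886.7, 1044 and 870 on the high fat diet. Replicate 3 was the highest of the high fat libraries and still lay below all on the normal diet. The log2 fold change was -0.53 ± 0.12 (edgeR adjusted p = 0.00974), and of the summed counts of Ugt2b5, Ugt2b37 and Ugt2b38 it was -0.54 ± 0.12 (edgeR adjusted p = 0.00744). Both calls in females were lost when TPM were tested with limma at a pseudocount of 1. The falls were then smaller, at -0.49 for Ugt2b1 (limma adjusted p = 0.052) and -0.29 for Ugt2b5 (limma adjusted p = 0.0541). The median log2 fold change of all genes was 0.15 in that fit, against 0 in the main one. Library totals in place of the scaling lost the call of Ugt2b5 (-0.34, edgeR adjusted p = 0.0505).

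The other non-overlapping genes were not called in females. Ugt2a3 stood at 503.1, 529.5, 433.9 and 481.4 CPM on the normal diet and at 276.4, 386.2, 402.9 and 374.5 on the high fat diet, a log2 difference of -0.44 ± 0.16 (edgeR adjusted p = 0.0831). Without replicate 1 of the high fat diet males, which enter the shared estimate of the spread, its adjusted p was 0.0493 in edgeR, and without replicates 2 and 3 of that group it was 0.0496. With only the female groups fitted it was 0.0472 in edgeR. Ugt3a2 stood at 580.7, 650.4, 570.2 and 620.8 CPM against 352.3, 525.9, 544 and 511.1, a difference of -0.33 ± 0.12 (edgeR adjusted p = 0.0917). DESeq2 called it (-0.32, adjusted p = 0.0455). Replicate 1 of the high fat females was the lowest library in both genes. Ugt2b36 was at 1070.2 ± 136.2 CPM against 852.9 ± 57.2 (SD, n = 4), a difference of -0.33 ± 0.13 (edgeR adjusted p = 0.121).

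The scarce copies varied most. Ugt2b37 in females was at 14.9, 16.5, 10.3 and 14.7 CPM on the normal diet and at 3.29, 4.9, 12.6 and 4.12 on the high fat diet, where replicate 3 lay among the normal diet libraries. The log2 difference was -1.19 ± 0.43 (edgeR adjusted p = 0.0893), and without that library it was -1.77 (edgeR adjusted p = 0.00744). Ugt2b38 lay between 1.17 and 2.23 CPM on the normal diet and between 0.314 and 0.725 on the high fat diet, from estimated counts of 8.1 to 61.2 per library, with a difference of -1.41 ± 0.89 (edgeR adjusted p = 0.333). All groups share one estimate of the spread, and without the 2 alike male libraries the same difference had an adjusted p of 0.00171 in edgeR. With only the female groups fitted the difference was -1.43 (edgeR adjusted p = 0.0185). Ugt2b34 (859.7 ± 55.6 against 785 ± 201.9 CPM), Ugt2b35 (217.2 ± 14.6 against 225.3 ± 30.2) and Ugt3a1 (154.8 ± 4.24 against 149.9 ± 36.1, SD, n = 4 each) overlapped between diets, with log2 differences of -0.13 ± 0.16, 0.05 ± 0.12 and -0.05 ± 0.18. The sign of each of these 3 turned under at least 1 alternative.

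**Figure D2:**
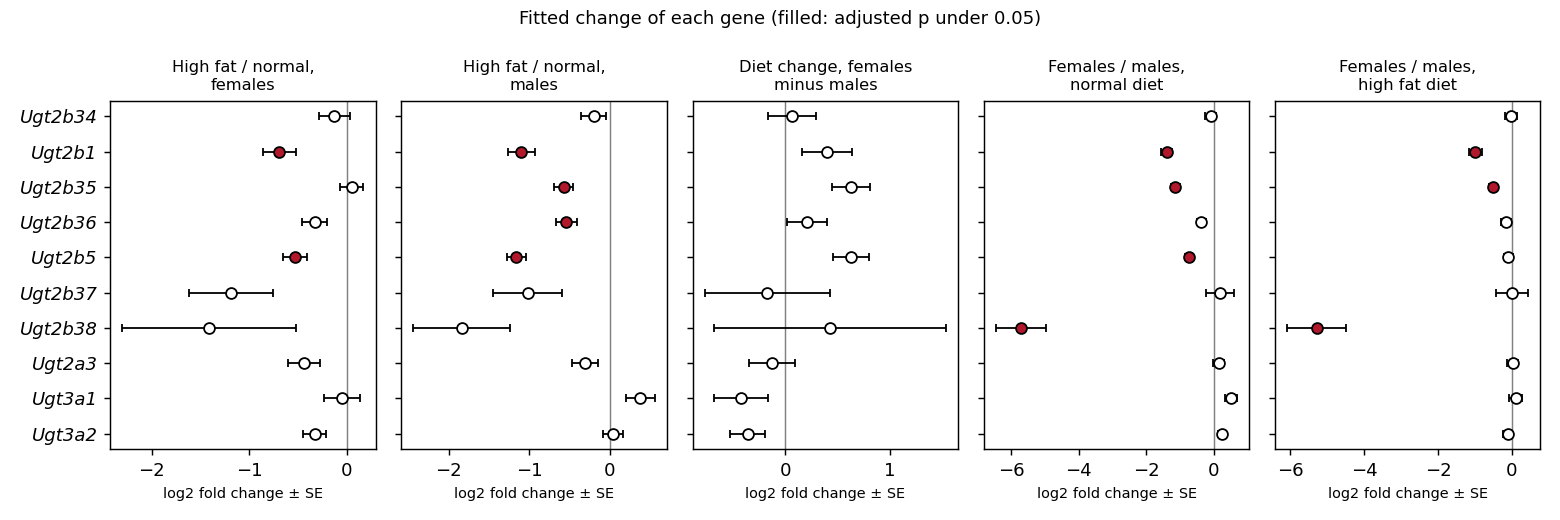
Log2 fold change of each of the 10 genes in the comparisons of diet and sex (horizontal axis), with bars of 1 standard error and filled points where the adjusted p was under 0.05. Ugt2b5 lies at -1.16 for diet in males and at -0.53 for diet in females, and Ugt2b38 lies at -5.71 for females against males on the normal diet.

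In males 4 of the 10 genes were lower on the high fat diet, Ugt2b1, Ugt2b5, Ugt2b35 and Ugt2b36, and none was higher. Of all genes tested 5.36% were called lower and 6.03% higher. The median log2 fold change of the 10 was -0.55, against 0.01 over all genes tested. High fat libraries lay below all normal diet libraries in 5 of the 10 genes (9.13% of all genes tested), which were these 4 and Ugt2b38.

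Ugt2b5 in males was at 2595, 1951, 2027 and 2306 CPM on the normal diet and at 815.9, 1058, 1097 and 989.4 on the high fat diet. The lowest normal diet library was far above the highest on the high fat diet. Ugt2b5 fell by 1.16 on the log2 scale, with a standard error of 0.12 (edgeR adjusted p = 2.34e-05). The sum of Ugt2b5, Ugt2b37 and Ugt2b38 had a log2 fold change of -1.18 ± 0.12 (edgeR adjusted p = 1.12e-05).

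Ugt2b1 in males was at 1224, 1175, 1358 and 1335 CPM on the normal diet and at 522.4, 543.1, 563.6 and 753.8 on the high fat diet, with no overlap. The log2 fold change was -1.1 ± 0.17 (edgeR adjusted p = 0.000508). The high fat males thus came nearer to the normal diet females in this gene, at 595.7 ± 106.7 against 485.9 ± 27.2 CPM (SD, n = 4). Their libraries still all lay above those females, whose highest was at 512.5 CPM. Of the other genes called for diet in males, mean Ugt2b35 also stayed above those females, at 321 ± 35.9 against 217.2 ± 14.6 CPM. Mean Ugt2b5 (990 ± 124.2 against 1335.9 ± 60.3) and Ugt2b36 (943.2 ± 159.3 against 1070.2 ± 136.2) lay below them. These pairs were not tested.

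Ugt2b35 in males was at 550.7, 404.8, 451.7 and 505.4 CPM on the normal diet and at 273, 331.2, 320.6 and 359.1 on the high fat diet, all lower. The log2 fold change was -0.57 ± 0.12 (edgeR adjusted p = 0.00624). Its neighbour Ugt2b36 was at 1585, 1247, 1280.2 and 1364 CPM against 748.5, 1054, 1091 and 879.2, again without overlap, with a log2 fold change of -0.54 ± 0.13 (edgeR adjusted p = 0.0152).

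Ugt2b38 in males was at 70.5, 95.3, 83.3 and 92.8 CPM on the normal diet and at 38.5, 5.19, 4.4 and 47.8 on the high fat diet. All high fat libraries were lower, but the 2 alike ones, replicates 2 and 3, were far below the other 2. The log2 difference was -1.84 ± 0.6 (edgeR adjusted p = 0.0666) and was not called. Without replicates 2 and 3 it was -0.99 (edgeR adjusted p = 0.00642), and without replicate 4 it was -2.42 (edgeR adjusted p = 0.0356). DESeq2 called the same difference (-1.85, adjusted p = 0.0247), as did limma on TPM (-2.31, adjusted p = 0.0191 at a pseudocount of 1). As a share of the counts of Ugt2b5, Ugt2b38 was at 2.72% to 4.88% in normal diet males, at 4.72% and 4.83% in replicates 1 and 4 of the high fat males, and at 0.491% and 0.401% in replicates 2 and 3. In females this share was 0.0364% to 0.169%.

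The remaining genes were not called for diet in males. Ugt2b37 was at 7.12, 11.5, 13.7 and 17.3 CPM against 7.36, 3.9, 3.44 and 10.1, a log2 difference of -1.02 ± 0.43 (edgeR adjusted p = 0.141) with overlapping groups. Ugt2a3 was at 440.4 ± 58.9 CPM against 355.1 ± 79.8 (SD, n = 4), a difference of -0.31 ± 0.16 (edgeR adjusted p = 0.217). It was called without replicates 2 and 3 of the high fat males (-0.6, edgeR adjusted p = 0.0436). Ugt2b34 was at 912.6 ± 92.6 against 794.1 ± 98.9 CPM and Ugt3a2 at 509.7 ± 25.5 against 522.3 ± 27.2 CPM (SD, n = 4), with differences of -0.2 ± 0.16 and 0.04 ± 0.12.

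Ugt3a1 in males was the one member with a higher mean on the high fat diet by more than 0.1 on the log2 scale. It was at 114.6, 95.9, 99.8 and 121 CPM on the normal diet and at 94.2, 174.4, 171.3 and 119.7 on the high fat diet, where only replicates 2 and 3 were above all normal diet libraries. The log2 difference was 0.38 ± 0.18 (edgeR adjusted p = 0.193). It was 0.52 without replicate 1 (edgeR adjusted p = 0.0497) and -0.01 without replicates 2 and 3 (edgeR adjusted p = 0.978).

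Whether the response to diet differed between the sexes was tested as the interaction, coded as the change in females minus the change in males. None of the 10 genes was called by edgeR, where 0.677% of all genes tested were, and 2 had an unadjusted p under 0.05. These were Ugt2b5 (0.63 ± 0.17, adjusted p = 0.104) and Ugt2b35 (0.63 ± 0.18, adjusted p = 0.115). DESeq2 called both (0.65, adjusted p = 0.0095, and 0.64, adjusted p = 0.0205), and so did limma on TPM. For Ugt2b1, which fell in both sexes, the interaction was 0.4 ± 0.24 (edgeR adjusted p = 0.503). For Ugt3a2, Ugt3a1 and Ugt2a3 it was negative, at -0.36 ± 0.17, -0.42 ± 0.26 and -0.13 ± 0.22, and not called. Also not called were Ugt2b36 (0.21 ± 0.19), Ugt2b34 (0.07 ± 0.23), Ugt2b37 (-0.17 ± 0.6) and Ugt2b38 (0.43 ± 1.11), the last with the widest error of the 10.

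On the normal diet 4 of the 10 genes were lower in females than in males, Ugt2b1, Ugt2b5, Ugt2b35 and Ugt2b38, and none was higher. Of all genes tested 8.68% were called lower in females and 7.03% higher. Sex comparisons use the same libraries as the diet comparisons, so they are not separate evidence. Ugt2b38 differed most: the 4 normal diet females were at 1.59, 1.63, 2.23 and 1.17 CPM, and every male on that diet was at 70.5 CPM or more. The log2 fold change was -5.71 ± 0.75 (edgeR adjusted p = 0.000315), so that the female level was 0.0192 of the male level. Because Ugt2b5 shares long identical stretches with it, the low female counts of Ugt2b38 and reads of Ugt2b5 assigned to it cannot be told apart.

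Ugt2b1 was at 485.9 ± 27.2 CPM in females and 1273.1 ± 87.6 in males on the normal diet (SD, n = 4), a log2 fold change of -1.39 ± 0.17 (edgeR adjusted p = 3.11e-05). Ugt2b35 was at 217.2 ± 14.6 against 478.1 ± 63.5 CPM, -1.14 ± 0.13 (edgeR adjusted p = 9.87e-06). Ugt2b5 was at 1335.9 ± 60.3 against 2219.7 ± 293.3 CPM, -0.73 ± 0.12 (edgeR adjusted p = 0.000696). In each of these the libraries of the sexes did not overlap. Females were also below males without overlap in Ugt2b36, which was not called (-0.36 ± 0.13, edgeR adjusted p = 0.0791). It was called by DESeq2 (-0.35, adjusted p = 0.0493) and by edgeR without replicates 2 and 3 of the high fat males (-0.36, adjusted p = 0.0461). That makes 5 genes below, against 12.2% of all genes tested.

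The Ugt3 pair leaned the other way. Ugt3a1 was at 154.9, 160.3, 149.9 and 154.1 CPM in normal diet females and at 114.6, 95.9, 99.8 and 121 in normal diet males, and the groups did not overlap. The log2 difference was 0.52 ± 0.18 (edgeR adjusted p = 0.0611) and not called, though 9 of the 28 alternatives called it. It was called without replicate 1 or 3 of either high fat group, with 0.0272 to 0.0491 as the range of edgeR adjusted p, and without replicates 2 and 3 of the high fat males together (edgeR adjusted p = 0.0241). Ugt3a2 was at 605.5 ± 37 CPM against 509.7 ± 25.5 (SD, n = 4), 0.25 ± 0.12 (edgeR adjusted p = 0.177), also without overlap. No overlap with females above was found for 9.86% of all genes tested. Ugt2b34, Ugt2b37 and Ugt2a3 overlapped between the sexes, with log2 differences of -0.09 ± 0.16, 0.18 ± 0.42 and 0.15 ± 0.16.

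On the high fat diet 3 of the 10 genes were lower in females, where 11.6% of all genes tested were called lower, and none was higher (8.84% of all genes tested). Ugt2b1 was at 300.2 ± 84.1 CPM in females and 595.7 ± 106.7 in males (SD, n = 4), -0.99 ± 0.17 (edgeR adjusted p = 0.000707). Ugt2b35 was at 225.3 ± 30.2 against 321 ± 35.9 CPM, -0.51 ± 0.12 (edgeR adjusted p = 0.00838). Ugt2b38 was at 0.602 ± 0.193 against 24 ± 22.5 CPM, -5.28 ± 0.8 (edgeR adjusted p = 0.000848). These were also the 3 genes without overlap, as were 12.4% of all genes tested with females below. For Ugt2b5 the sexes overlapped on this diet, at 924.3 ± 80.3 against 990 ± 124.2 CPM, -0.1 ± 0.12 (edgeR adjusted p = 0.593). The other 6 overlapped too, with log2 differences of -0.15 ± 0.13 for Ugt2b36, -0.02 ± 0.16 for Ugt2b34, 0.01 ± 0.44 for Ugt2b37, 0.02 ± 0.16 for Ugt2a3, 0.1 ± 0.18 for Ugt3a1 and -0.11 ± 0.12 for Ugt3a2. In this comparison 3 of the 5 Kupffer markers and the hepatocyte marker Alb were called higher in females, as given above. Of the other hepatocyte markers, Ttr (0.3) and Apoa1 (0.2) leaned the same way and Apob (-0.42) and Cps1 (-0.18) the other. None of these 4 was called.

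**Figure D3:**
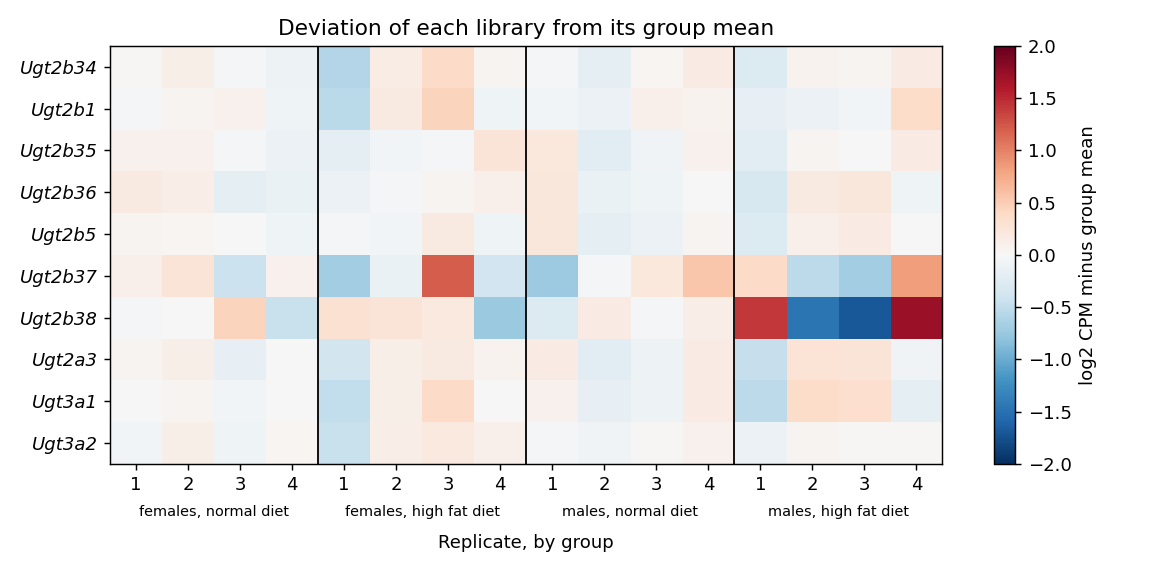
Deviation of each library from its group mean in log2 CPM (colour) for the 10 genes (rows) over the 16 libraries (columns, by group and replicate). Replicate 1 of the high fat females is low in most genes, and in Ugt2b38 replicates 2 and 3 of the high fat males lie at -1.46 and -1.69 against 1.42 and 1.73 in replicates 1 and 4.

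Within groups, some members varied together. Over the 16 libraries, after each group's mean was taken off, Pearson's r of log2 CPM was 0.95 for Ugt2a3 with Ugt3a1, 0.92 for Ugt2b34 with Ugt3a2, 0.89 for Ugt2b1 with Ugt2b34, 0.85 for Ugt2b36 with Ugt2a3 and 0.79 for Ugt2b5 with Ugt2b36. Without replicates 2 and 3 of the high fat males the same values were 0.91, 0.92, 0.95, 0.75 and 0.71. Both sets keep replicate 1 of the high fat females. That library deviated by -0.37 in Ugt2a3, -0.5 in Ugt3a1, -0.58 in Ugt2b34, -0.44 in Ugt3a2 and -0.54 in Ugt2b1. Replicate 1 of the high fat males, also kept, was at -0.46 in Ugt2a3 and -0.52 in Ugt3a1. Values of r without these libraries were not computed. Ugt2a3 and Ugt3a1 lie on different chromosomes and do not share exact windows with each other. Ugt2b38 went against several members, with r of -0.69 with Ugt2b36, -0.66 with Ugt3a1 and -0.65 with Ugt2a3, and these fell to -0.32, -0.04 and -0.22 without those 2 libraries. The values share libraries and scaling and are a description.

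Genes outside the family with the most similar pattern over all 16 libraries were sought among 10633 genes. For Ugt2b38 they were Serpina1e (r = 0.985) and Gstp1 (0.973), for Ugt2b1 Prep (0.974) and Mbnl2 (0.962), and for Ugt2b36 the aldo-keto reductase genes Akr1c12 (0.962) and Akr1c19 (0.924). Ugt2a3 was followed most closely by Pgrmc1 (0.942) and Akr1c14 (0.94), Ugt3a1 by B630019A10Rik (0.95) and Aldh3a2 (0.928), and Ugt2b35 by Dpy19l3 and Zfp125 (0.945 each). For Ugt2b5 they were mt-Rnr1 (0.939) and Dnajb4 (0.935), for Ugt3a2 Snx13 (0.923) and Ccdc50 (0.917), for Ugt2b34 Snap23 (0.89) and Prps1l3 (0.871), and for Ugt2b37 Gm15542 (0.889) and Fbxo46 (0.872). Each is the best of many genes and carries the group differences described above.

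Of 12 other UDP-glycosyltransferase genes 8 were tested. The high fat diet lowered 1 of them in females, Ugt1a10 (-1.56 ± 0.3, edgeR adjusted p = 0.00286), and 2 in males, Ugt1a9 (-1.8 ± 0.3, edgeR adjusted p = 0.00148) and Ugt1a10 (-1.28), and raised none. On the normal diet females were higher in 2, Ugt1a1 (0.9 ± 0.19) and Ugt1a5 (2.4 ± 0.57), and lower in 2, Ugt1a6a and Ugt1a6b. On the high fat diet they were higher in 3, Ugt1a1 (0.59), Ugt1a5 (2.72) and Ugt1a9 (1.34), and lower in 1, Ugt1a6b (-0.48). The Ugt1a genes share exons, so the division of reads between them is uncertain as well.

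The supply of UDP-glucuronate was counted over 9 genes, all tested. In females diet changed none of them by edgeR (2 had an unadjusted p under 0.05), and in males it lowered 2, Ugdh, which makes UDP-glucuronate (-0.73 ± 0.17, edgeR adjusted p = 0.0115), and Gusb, the glucuronidase that removes glucuronic acid (-0.43). It raised 1 in males, Gulo (0.58 ± 0.13, edgeR adjusted p = 0.00922), an enzyme of vitamin C synthesis that draws on glucuronate. On the normal diet Ugdh (-1.05), Slc35d1 (-0.63) and Gusb (-0.47) were lower in females and Rgn (0.91) was higher, and on the high fat diet the first 3 were lower as well.

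Of 4 pumps that can export conjugates, diet lowered Abcc4 (-0.76) and Abcg2 (-0.88) in females and Abcc4 in males (-0.96). Females were higher than males in Abcc4 (1.15 on the normal and 1.35 on the high fat diet) and lower in Abcg2 (-1.3 and -2.23). Of 10 transcription factors, diet lowered 2 and raised 1 in each sex. Hnf4a fell with diet in females (-0.6 ± 0.12, edgeR adjusted p = 0.00331) and in males (-0.47, edgeR adjusted p = 0.0139), as did Nr1i2, the pregnane X receptor (-0.79 ± 0.1 and -0.41). Nfe2l2 rose in females (0.36), and Stat5b rose in males (0.71 ± 0.13, edgeR adjusted p = 0.00243). On the normal diet 2 were higher in females, Cux2 (6.03) and Nr1i2 (0.42), and none was lower. On the high fat diet Cux2 (6.7) and Nfe2l2 (0.43) were higher in females and Hnf4a was lower (-0.46, edgeR adjusted p = 0.00942), and the difference in Nr1i2 was 0.03 and not called. For the interaction of diet and sex edgeR called none of the genes in these 4 lists, and those with an unadjusted p under 0.05 were 1 of the other UDP-glycosyltransferases, 2 of the supply genes, 1 pump and 4 transcription factors.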

How the data were processed

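RNA of mouse liver was sequenced in 16 libraries after polyA selection. Per the submitters' processing notes the tools were STAR and RSEM with GRCm39, with no versions given; strandedness is not given in the sources used here. The authors deposited expected counts (estimated counts from RSEM) and TPM per gene. Expected counts were rounded to whole numbers, and 4.89% of entries were not whole (tolerance 0.005). Symbols came from a supplied table: 51487 genes, with 98.97% of counts. Genes were filtered with filterByExpr, which kept 14781 genes, and fitted in edgeR 4.0.16 (TMM, robust quasi-likelihood, all 4 groups, 5 contrasts, two-sided, Benjamini-Hochberg over all genes tested). TPM were used for levels between genes and with limma 3.58.1 (pseudocounts 1 and 0.1). DESeq2 1.42.0 was an alternative. The fit was tested on simulated data. Gene order, coding sequences and promoters came from GENCODE M21 and RefSeq for GRCm38.p6, another build than that of the counts, so coordinates are printed only for promoter sequences, in that build; protein sequences were not used here.

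All 10 members are named in every comparison; genes of 4 further lists are counted, and any called one may be named; for likeness the 2 genes outside the family with the highest r are named, among genes with mean log2 CPM of at least 1. The members and lists were chosen with earlier results of these data known. The result of 1 listed transcription factor is not reported here.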

Additional observations from a re-analysis of the deposited data

Results flagged for a closer look

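Within the 40 sets of 4 libraries (10 genes in 4 groups), 3 had 1 library far from the other 3 by Dixon's ratio of the gap to the range; chance gives about 1 in 20. In Ugt2b5, replicate 3 of the high fat females was above the rest (1044 CPM against 870 to 896.9, ratio 0.845). In Ugt2b38, replicate 4 of the high fat females was below the rest (0.314 CPM against 0.673 to 0.725, ratio 0.874), from an estimated count of 8.1. In Ugt3a2, replicate 1 of the high fat males was below the rest (481.8 CPM against 533.3 to 540.5, ratio 0.877).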

How the results depend on the processing

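The number of members called for diet in females, 2 as reported, was 1 with library totals, 4 with only the groups compared, 0 with limma on TPM at either pseudocount (4 with an unadjusted p under 0.05), and 4 without replicates 2 and 3 of the high fat males, an alternative chosen after seeing the data. For diet in males, 4 as reported, it was 6 without those 2 libraries, 5 with DESeq2 or limma, and 3 with copies summed as below. For the interaction, 0 as reported, it was 1 with library totals, 2 with DESeq2 and 2 with limma at either pseudocount. For sex on the high fat diet, 3 as reported, it was 1 with copies summed (Ugt2b5 with Ugt2b37 and Ugt2b38, and Ugt2b35 with Ugt2b36, which share no 100-base window); the sum of Ugt2b35 and Ugt2b36 was at -0.23 (edgeR adjusted p = 0.215). Ugt2b37, 0.18 for sex on the normal diet, then took the value of its sum, -0.78 (edgeR adjusted p = 0.000279), which Ugt2b5 dominates. Leaving out 1 library at a time gave 2 to 3 members for diet in females, 4 to 5 in males, 0 to 0 for the interaction, 4 to 5 for sex on the normal diet and 3 to 3 on the high fat diet. Over all genes, the count for diet in females was 1700 and moved to 2690 with library totals, 2926 and 2763 with limma, and 947 to 1874 without 1 library. Library totals moved the median of all genes in that comparison to 0.19 and split the calls 2318 higher to 372 lower, against 848 to 852; limma split them 2644 to 282 and 2487 to 276. For diet in males it was 1684, and 1113 without replicate 3 of the normal diet males. For the interaction it was 100, and 337 with DESeq2, 58 with the 2 alike libraries averaged and 51 to 176 without 1 library. For sex it was 2322 on the normal diet, down to 1325 without replicate 2 of the females, and 3022 on the high fat diet, 1958 with only the groups compared and 1974 without replicate 4 of the males. Groups share replicate numbers, and same-numbered libraries deviated together weakly or not at all (r from -0.16 to 0.18 over 16 pairs). In 7 pairs the best match among 4 candidates had the same number. Between the sexes on the same diet every r was positive, from 0.02 to 0.18. Between the diets within a sex it lay from -0.16 to 0.14. With the number as a block, 2 members were called for diet in females, 4 in males, 0 for the interaction, 4 for sex on the normal diet and 3 on the high fat diet. Over all genes the block gave 1864, 1980, 101, 2685 and 3445 calls in the same order.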
